A study of Mus musculus with 9 samples.

Results

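Chaperone genes of the heat shock response and genes of the unfolded protein response were read across sorted group 2 innate lymphoid cells (ILC2s) of mouse meninges and lung. The members were the 40 genes of a list chosen by symbol, of 23466 genes in the deposited table, and the rule that picks them has no measured value in it, although the list was drawn up with earlier results of these data known. They were kept as 2 classes: 22 cytosolic and mitochondrial chaperone genes with their regulator, and 18 genes of stress in the endoplasmic reticulum (ER). All 40 were found by symbol, and all 40 were among the 15117 genes that passed the filter on low counts.

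ILC2s are tissue-resident lymphocytes that make type 2 cytokines. The cells were wild type, from C57/Bl6 mice aged 10 weeks, and were sorted as live CD45+ cells without lineage markers that carried St2, the receptor for IL-33, and Thy1. Each of 3 groups had 3 libraries: uninjured brain meninges, injured brain meninges, taken 24 h after an 80 kdyn contusion of the spinal cord, and uninjured lung. Each group pooled 5 mice, per the labels, and it is not stated whether each library had a pool of its own, so p-values measure the spread between libraries, which may be technical. No sham operation is mentioned for the uninjured mice. RNA was amplified before library preparation, per the labels' protocols.

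Heat shock proteins are chaperones: they hold unfolded proteins, fold them or pass them on for degradation. In stressed cells heat shock factor 1, encoded by Hsf1, binds heat shock elements before the start of inducible chaperone genes. The ER has a system of its own, in which the sensors IRE1 (encoded by Ern1), ATF6 and PERK switch on ER chaperones, folding enzymes and degradation through XBP1, ATF6 and ATF4.

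The promoters of the 2 classes held different motifs. Windows from 250 bases before to 50 bases after the annotated start (RefSeq, GRCm38.p6) were given for 34 of the 40 members, 17 of each class. The other 6 were Hspa8, Hsp90aa1, Hsp90ab1, Hspa9, Hsf1 and Atf6. A heat shock element, searched as GAANNTTC or TTCNNGAA on both strands, was in the windows of 11 of 17 chaperone genes (64.7%), of 0 of 17 ER stress genes and of 17% of all 27025 genes with a window. The ER stress response element, searched on both strands as CCAAT and CCACG separated by 9 bases, was in 6 of 17 ER stress genes (35.3%), in 0 of 17 chaperone genes and in 0.137% of all genes. These 6 were Hspa5, Hsp90b1, Calr, Canx, Dnajc3 and Pdia6. Of the other 3 motifs searched, TGACGTGG was in no member (0.714% of all genes), TGACGTCA was in Ppp1r15a alone (2.03%) and TGATGNAA was in Herpud1 alone (4.51%). Both heat shock patterns are their own reverse complement. A match is a run of letters, not a shown binding site. The heat shock and ER stress response elements are named for the same responses as the 2 classes. Their shares are a description without a test.

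The 250 bases before the start are shown for 4 chaperone genes with a heat shock element, each called lower in 1 or more of the comparisons with lung, and for 2 ER chaperones as the contrast. They were chosen after the matches were known, and the matched letters are in capitals. Hspa1a (chr17:34972157-34972406, minus strand) and Hspa1b (chr17:34959239-34959488, minus strand) are neighbouring copies of the stress-inducible HSP70 gene, and each has 1 heat shock element with its first base at position -104 from the start. Dnaja1 lies at chr4:40722218-40722467 on the plus strand and Hspe1 at chr1:55087898-55088147 on the plus strand, where 3 elements overlap.
Hspa1a: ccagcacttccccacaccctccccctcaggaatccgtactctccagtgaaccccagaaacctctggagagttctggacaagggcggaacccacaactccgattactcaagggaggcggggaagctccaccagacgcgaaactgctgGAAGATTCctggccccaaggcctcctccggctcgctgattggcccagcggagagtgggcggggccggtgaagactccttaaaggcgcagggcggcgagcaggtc
Hspa1b: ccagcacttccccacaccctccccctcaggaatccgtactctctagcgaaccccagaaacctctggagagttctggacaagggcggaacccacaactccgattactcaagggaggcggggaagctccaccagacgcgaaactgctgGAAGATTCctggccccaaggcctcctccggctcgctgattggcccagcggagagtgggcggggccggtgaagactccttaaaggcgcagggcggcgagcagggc
Dnaja1: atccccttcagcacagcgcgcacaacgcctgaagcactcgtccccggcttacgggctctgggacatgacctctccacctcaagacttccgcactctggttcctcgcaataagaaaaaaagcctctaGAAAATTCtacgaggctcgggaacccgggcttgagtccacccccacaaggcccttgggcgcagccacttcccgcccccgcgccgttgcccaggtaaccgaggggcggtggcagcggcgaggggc
Hspe1: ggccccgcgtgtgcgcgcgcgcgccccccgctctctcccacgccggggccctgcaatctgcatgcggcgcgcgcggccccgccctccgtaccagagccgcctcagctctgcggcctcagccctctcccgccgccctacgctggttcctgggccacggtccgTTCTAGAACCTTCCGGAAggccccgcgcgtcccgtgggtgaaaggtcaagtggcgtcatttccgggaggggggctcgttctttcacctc
The promoters of Hspa1a and Hspa1b differed at 3 of 250 bases (98.8% identical), and the longest open reading frames of their transcripts, of 1926 and 1929 bases, were 99.43% identical. Reads of the 2 copies can therefore be split or set aside by the counting, and each copy's value is uncertain, so their sum is given too. The ER chaperone promoters, Hspa5 at chr2:34771840-34772089 on the plus strand and Hsp90b1 at chr10:86705445-86705694 on the minus strand, carry CCAAT and CCACG with 9 bases between them, once in Hspa5 and at 2 places in Hsp90b1, where the second is on the other strand.
Hspa5: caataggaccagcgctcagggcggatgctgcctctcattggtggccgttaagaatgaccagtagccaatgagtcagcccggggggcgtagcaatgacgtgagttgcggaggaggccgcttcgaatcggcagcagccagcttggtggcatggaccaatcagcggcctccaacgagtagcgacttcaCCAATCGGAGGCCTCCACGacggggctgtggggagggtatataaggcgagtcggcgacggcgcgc
Hsp90b1: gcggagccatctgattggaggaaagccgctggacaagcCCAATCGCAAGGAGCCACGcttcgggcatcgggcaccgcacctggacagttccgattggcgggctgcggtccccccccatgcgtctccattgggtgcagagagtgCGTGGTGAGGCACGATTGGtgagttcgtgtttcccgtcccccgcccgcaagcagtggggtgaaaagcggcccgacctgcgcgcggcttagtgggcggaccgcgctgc

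Library totals ran from 13407277 to 18253462 counts. A count of 0 allows up to 3 counts, which equalled 0.163 to 0.239 CPM (counts scaled to a common library size) and covers counting error only. No 2 libraries agreed within sampling noise (chi-square over genes at least 62.8 per degree of freedom). Injured meninges 2 stood apart: its rank correlations across genes with its own group were 0.795 and 0.799, against 0.854 to 0.886 for every other pair within a group, and it had the fewest genes with a count (13465). The sort genes were present in every library, Il1rl1 at 1852 to 2694 CPM and Ptprc at 1301 to 2069 CPM, while Thy1 was lower in injured than in uninjured meninges (log2 fold change -1.73 ± 0.29 SE, edgeR adjusted p = 0.0218). Lung libraries also held RNA of other lung cells. Summed over 9 epithelial markers they had 2268, 716 and 1362 CPM, against at most 27.7 CPM in any meningeal library. Meningeal libraries held counts of markers of other cells too. The sum of 3 neutrophil markers was 37.5 ± 40.1 CPM (SD, n = 3) in uninjured meninges and 2.96 ± 2.49 CPM in lung. The sum of 3 T cell markers was 101 CPM in injured meninges 2. Most of that was 1 gene, Cd3g, at 91.9 CPM, with Cd3e at 8.35 CPM and Cd3d at 0.716 CPM. Cd3d was highest in uninjured meninges 3, at 30.7 CPM.

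Per kilobase of exon, Hsp90ab1, the constitutive cytosolic HSP90, had the highest mean level of the 40 members in every group, with 166 CPM per kb in uninjured meninges, 120.2 after injury and 221 in lung. Hsp90b1, the HSP90 of the ER (GRP94), stood next in uninjured meninges at 132 CPM per kb, before the disulfide isomerase Pdia3 at 88.0 and the constitutive HSP70 Hspa8 at 80.5. In lung the order was different: Hspa8 stood next at 141 CPM per kb, then Hsp90b1 at 119.9, then Hsp90aa1, the inducible HSP90, at 102. Hsp90aa1 had ranked 14 of 40 in uninjured meninges, at 23.0 CPM per kb. The lowest members in uninjured meninges were Bag3, Hspa1b, Hspb1 and Hspa1a, all under 2.4 CPM per kb.

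**Figure D1:**
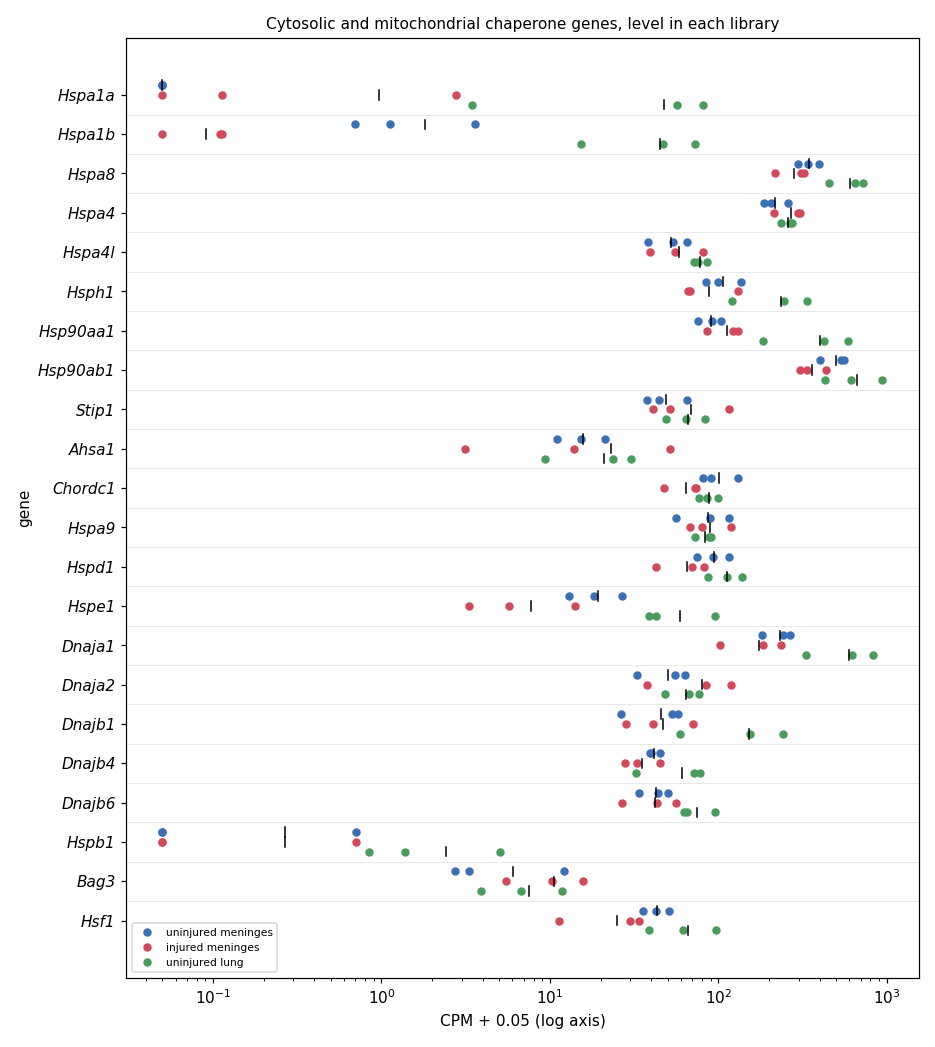
Level of each of the 22 cytosolic and mitochondrial chaperone genes in each of the 9 libraries, as CPM plus 0.05 on a log axis. Points are libraries, colours are the 3 groups, and the short bar is the mean of the group. The lung points of Hspa1b, Hsp90aa1, Dnaja1 and Hspa8 lie to the right of all meningeal points, while those of Hspa4, Stip1 and Hspa9 overlap them.

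The question of tissue without injury was addressed by uninjured meninges against uninjured lung. The inducible HSP90 gene Hsp90aa1, the HSP70 copies Hspa1a and Hspa1b and the ER sensor Ern1 were called lower in meningeal ILC2s, and no member was called higher. These 4 of 40 members stand beside 0.635% of all 15117 genes called in this comparison (0.595% lower, 0.0397% higher) at an edgeR adjusted p under 0.05. At an unadjusted p under 0.05 there were 10 members, against 7.98% of all genes. The chaperone class leaned one way as a whole, with 20 of 22 fitted values below 0 and a median log2 fold change of -0.59, where all genes tested had a median of 0.00 and 49.9% below 0. That median could not change with Hspa1a at its bound of -7.99, since its fitted value and the bound both lie far below the median. In 10 of the 22 the groups did not overlap, meninges always lower, against 10.6% of all genes lower without overlap.

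Hsp90aa1 encodes the HSP90 that stress induces. It had 104, 91.3 and 75.4 CPM in uninjured meninges and 184, 589 and 427 CPM in lung. Every lung library was above every meningeal one, although lung 1 was far below lung 2 and lung 3. The log2 fold change was -2.15 ± 0.35 (SE), with an edgeR adjusted p of 0.00685, and Hsp90aa1 was called in all 18 alternatives, leaving out any 1 library included. Its constitutive paralogue Hsp90ab1 had 557, 534 and 403 CPM in uninjured meninges and 431, 945 and 613 CPM in lung, and these overlap (-0.41 ± 0.26, adjusted p = 0.819).

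The stress-inducible HSP70 pair showed the widest gap. Hspa1b had 3.54, 0.645 and 1.07 CPM in uninjured meninges and 15.3, 72.5 and 47.1 CPM in lung (-4.67 ± 0.96, edgeR adjusted p = 0.0336). Hspa1a had no count in any uninjured meningeal library and 3.38, 57.1 and 81.3 CPM in lung (edgeR adjusted p = 0.0382). Against a limit of 3 counts per library, its mean was at least 254-fold lower in meninges. That bound covers counting error only, not reads split between the 2 copies. Summed, the 2 copies came to 1.75 ± 1.56 CPM (SD, n = 3) in uninjured meninges and 92.2 ± 63.7 CPM in lung, and the sum just missed the threshold at -5.70 with an adjusted p of 0.0512. Lung 1 was again the lowest of the lung libraries for both copies.

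The calls of Hspa1a, Hspa1b and Ern1 depended on single libraries. Without uninjured meninges 2, uninjured meninges 3, lung 2 or lung 3, Hsp90aa1 was the 1 member still called, and without uninjured meninges 1 there were 2, Hsp90aa1 and Hspa1b. The fold change of Ern1 ranged from -1.42 to -1.001 over 18 alternatives, and that of Hspa1b from -5.70 to -4.16 over 17.

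Other HSP70 and HSP110 genes had values in the same direction that missed the threshold. Hspa8, the constitutive HSP70, had 398, 342 and 298 CPM in uninjured meninges and 453, 727 and 645 CPM in lung, without overlap (-0.81 ± 0.23, adjusted p = 0.18). Hsph1, an HSP110 that acts as nucleotide exchange factor for HSP70, had means of 107 and 235 CPM (-1.14 ± 0.38, adjusted p = 0.287). For Hspa4l the groups did not overlap either (means of 52.6 and 77.7 CPM, -0.56 ± 0.37), whereas Hspa4 overlapped, with means of 217 and 259 CPM (-0.26 ± 0.23). All 6 genes of this family had values below 0, with 2 called.

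J proteins hand substrates to HSP70 and start its ATP cycle. All 5 had values below 0 and none was called. Dnaja1 came closest: 183, 244 and 268 CPM in uninjured meninges stood against 334, 829 and 619 CPM in lung, without overlap (-1.36 ± 0.33, adjusted p = 0.0936), and it was called in 5 of 18 alternatives, DESeq2 among them. Dnajb1, the main inducible partner of HSP70, had 57.9, 53.4 and 26.3 CPM against 58.9, 242 and 154 CPM (-1.72 ± 0.49, adjusted p = 0.18). Only lung 2 and lung 3 were clearly above the meninges for Dnajb1, since lung 1 lay next to uninjured meninges 1. Dnajb6 did not overlap (-0.80 ± 0.40, means of 42.8 and 74.6 CPM), and Dnajb4 (-0.56 ± 0.43) and Dnaja2 (-0.35 ± 0.43) did.

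None of the 3 mitochondrial chaperones was called. Hspe1, the HSP10 lid of the mitochondrial folding chamber, had 13.0, 18.3 and 26.8 CPM in uninjured meninges and 42.4, 96.2 and 38.9 CPM in lung (-1.61 ± 0.63, adjusted p = 0.442). Hspd1, the HSP60 chamber itself, which shares its promoter region with Hspe1 in the opposite direction, had means of 94.8 and 113 CPM (-0.25 ± 0.33). Hspa9, the mitochondrial HSP70, had 87.2 and 83.8 CPM (0.06 ± 0.34).

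The remaining chaperone members were nearer to 0 or too scarce to judge. Among HSP90 partners, Stip1, which links HSP70 to HSP90, had -0.42 ± 0.43, Ahsa1, an activator of the HSP90 ATPase, had -0.41 ± 0.83, and Chordc1 had 0.21 ± 0.32. Chordc1 had 81.5, 90.6 and 131 CPM in uninjured meninges and 86.1, 77.0 and 99.5 CPM in lung. Hspb1 (HSP27) was at 0 to 0.653 CPM in uninjured meninges and at 0.799 to 5.00 CPM in lung (-3.38 ± 2.37), and its partner Bag3 had -0.30 ± 1.01. Hsf1 had 50.7, 42.6 and 35.5 CPM in uninjured meninges and 61.4, 97.4 and 38.8 CPM in lung, which overlap (-0.62 ± 0.48, adjusted p = 0.902).

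**Figure D2:**
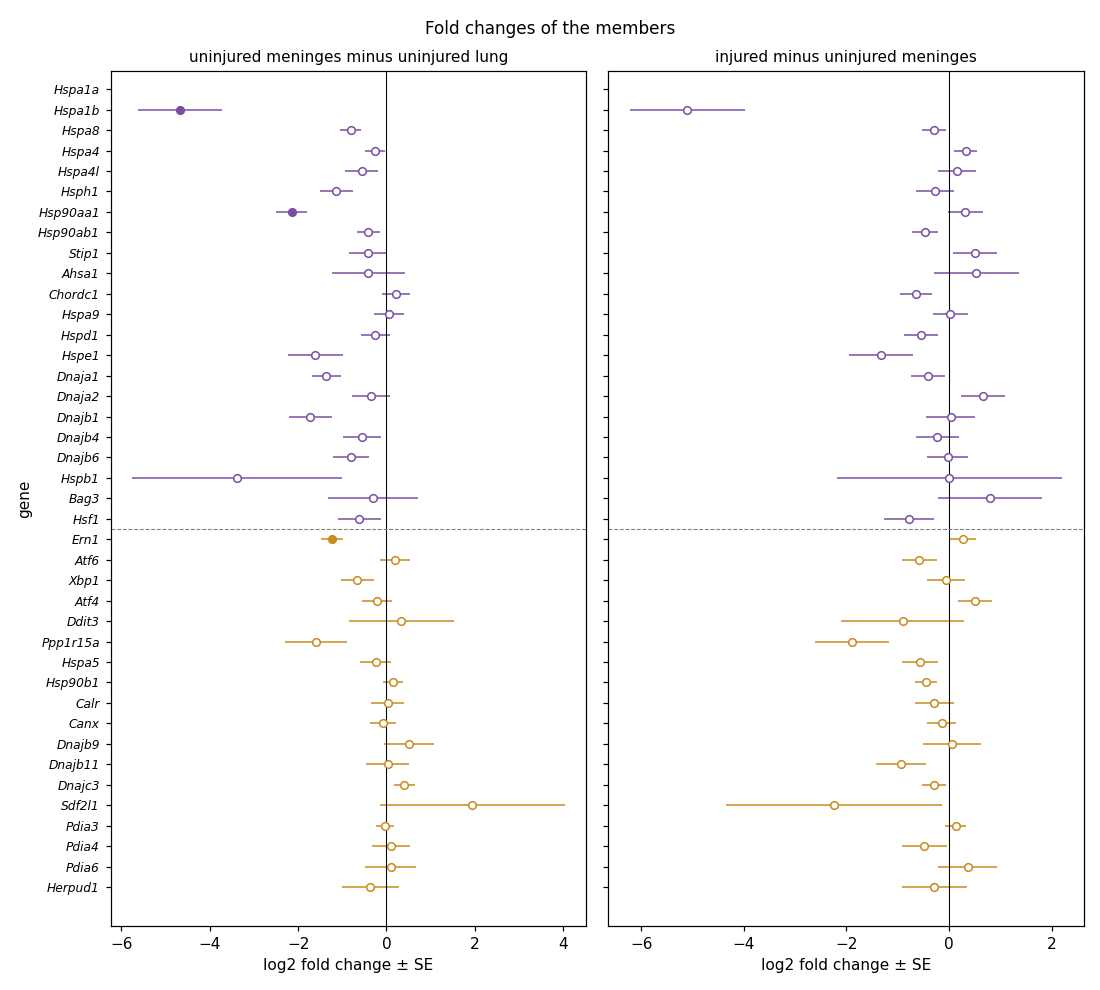
Log2 fold change of each member with its standard error, in uninjured meninges minus uninjured lung (left) and injured minus uninjured meninges (right). Filled points passed an edgeR adjusted p under 0.05, the dashed line parts the chaperone class above from the ER stress class below, and Hspa1a is not drawn because uninjured meninges had no count of it. In the left panel most chaperone points lie below 0 and Hspa1b, Hsp90aa1 and Ern1 are filled, and in the right panel no point is filled.

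ER stress genes had values on both sides of 0. Of the 18, 8 had values below 0 in uninjured meninges against lung, the median was 0.03, and 1 was called. That gene, Ern1, encodes IRE1, the kinase and RNase that splices Xbp1 mRNA. It had 116, 115 and 114 CPM in uninjured meninges and 194, 357 and 258 CPM in lung, with all lung libraries above (-1.23 ± 0.26, edgeR adjusted p = 0.0382). Its substrate Xbp1 had 65.7, 69.3 and 80.0 CPM against 141, 65.0 and 136 CPM, where lung 2, the library highest in Ern1, was the lowest in Xbp1 (-0.67 ± 0.37, adjusted p = 0.752). Counts per gene do not show splicing of Xbp1.

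Neither the other sensor nor a transcription factor of the class was called. Atf6 had 117, 80.6 and 89.4 CPM in uninjured meninges and 73.8, 67.2 and 111 CPM in lung (0.18 ± 0.34). Atf4, the factor made under eIF2alpha phosphorylation, had 60.9, 43.6 and 74.0 CPM against 54.2, 64.0 and 88.4 CPM (-0.21 ± 0.34). Ddit3, which encodes CHOP, was scarce, with 10.2, 8.13 and 4.23 CPM against 1.54, 4.86 and 11.5 CPM (0.34 ± 1.18). Ppp1r15a (GADD34), the phosphatase subunit that reverses eIF2alpha phosphorylation, had 5.77, 11.6 and 48.6 CPM in uninjured meninges and 45.3, 74.1 and 79.3 CPM in lung, so that uninjured meninges 3 alone reached the lung range (-1.59 ± 0.70, adjusted p = 0.559).

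None of the 8 ER chaperones and 3 folding enzymes was called between the tissues. Hspa5 (BiP), the HSP70 of the ER, had 185, 152 and 153 CPM in uninjured meninges and 193, 147 and 240.3 CPM in lung (-0.25 ± 0.35). Hsp90b1 had 569, 394 and 638 CPM against 459, 451 and 539 CPM (0.14 ± 0.22), and Calr, a lectin chaperone of glycoproteins, had 127, 134 and 110.03 CPM against 157, 129.6 and 77.6 CPM (0.03 ± 0.38). Both span 0 within 1 SE, and so did the membrane-bound lectin Canx (-0.08 ± 0.29) and all 3 disulfide isomerases, Pdia3 (-0.03 ± 0.20), Pdia4 (0.10 ± 0.43) and Pdia6 (0.09 ± 0.58). Dnajc3, an ER J protein, was the 1 member of either class whose uninjured meningeal libraries all lay above lung, at 251, 189 and 204 against 184, 147 and 155 CPM (0.40 ± 0.24, adjusted p = 0.773), and 7.63% of all genes were higher in meninges without overlap. Dnajb9 (0.51 ± 0.56), Dnajb11 (0.02 ± 0.49), Sdf2l1 (1.94 ± 2.09, means of 6.35 and 1.64 CPM) and Herpud1, of ER-associated degradation (-0.37 ± 0.64), overlapped between the tissues. Dnajb11 had 49.4, 40.5 and 80.1 CPM in uninjured meninges and 50.8, 35.2 and 81.2 CPM in lung.

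**Figure D3:**
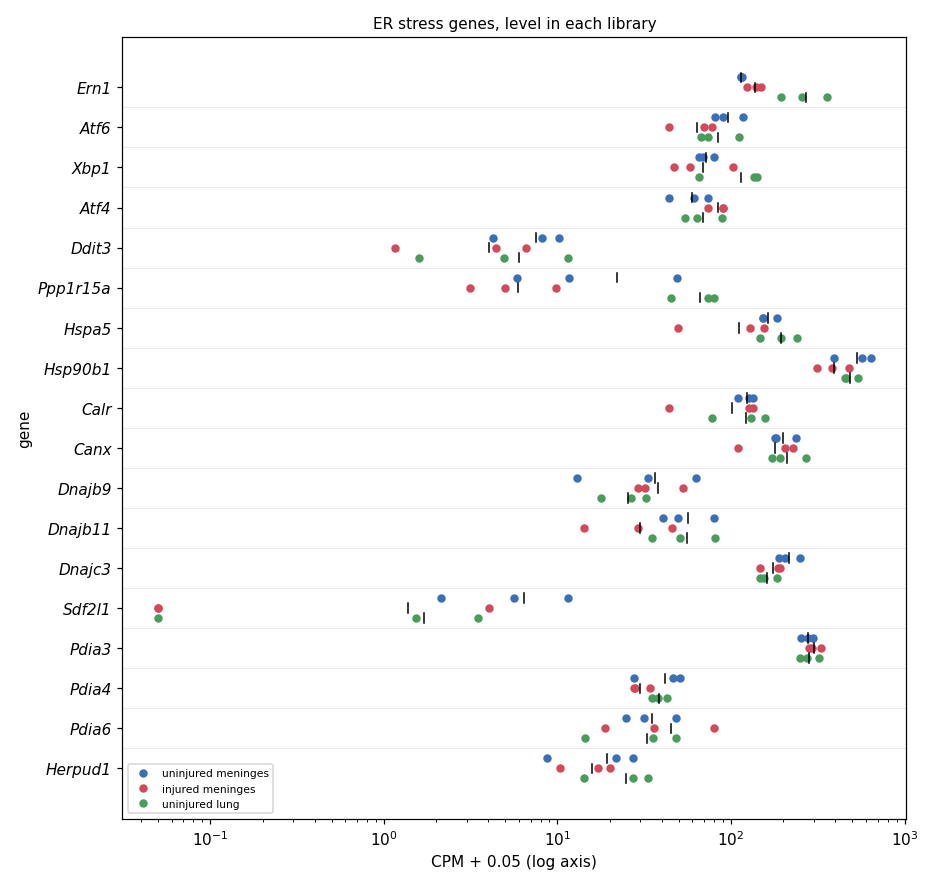
Level of each of the 18 ER stress genes in each of the 9 libraries, as CPM plus 0.05 on a log axis, drawn as for the chaperone genes. The lung points of Ern1 lie to the right of all meningeal points, and those of Hspa5, Calr, Canx and Pdia3 overlap the meningeal range.

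The chaperone excess of lung was uneven between its libraries. Summed over the 22 genes, lung had 2557, 4878 and 3926 CPM, and uninjured meninges had 2276, 2174 and 1973 CPM. Lung 1 was the lowest lung library for 12 of the 22 genes (54.5%) and lung 2 the highest for 13 (59.1%), while over all genes lung 1 was the lowest for 32.2% and lung 2 the highest for 33.1%. The ER stress sums were 2136, 2093 and 2496 CPM in lung and 2254, 1758 and 2218 CPM in uninjured meninges, which overlap. This order of libraries was looked at after the values were seen.

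Other gene lists were uneven between the lung libraries too, in differing orders. Immediate early genes, 16 genes that respond within minutes to many stimuli, summed to 3631, 6348 and 6189 CPM in lung, again with lung 1 lowest. In uninjured meninges they summed to 316, 548 and 1594 CPM. Of the 16, 5 were called lower, among them Nr4a3, Dusp1, Zfp36 and Nfkbia, beside 0.595% of all genes called lower. Lung epithelial markers had the reverse order within lung, lung 1 being highest and lung 2 lowest, and endothelial markers likewise with 568, 194 and 431 CPM. Of 7 epithelial markers tested, 2 were called lower in meninges, beside the same 0.595% of all genes. Of the 9, 2 (Scgb3a2 and Cldn18) were at 0 in every library of both meningeal groups. The 6 monocyte and macrophage markers summed to 358, 32.6 and 484 CPM in lung and to 26.8 to 92.1 CPM in uninjured meninges. Most of that lung excess was 1 gene, Lyz2, with 326, 6.78 and 425 CPM in lung and 3.69 to 41.1 CPM in uninjured meninges. Of the 6 markers 0 were called, and 1, Itgam, went the other way, with means of 4.89 CPM in lung and 20.4 CPM in uninjured meninges. The 7 fibroblast markers summed to 97.2 to 276 CPM in lung and 3.29 to 77.3 CPM in uninjured meninges. In lung 2, where the chaperone sum was highest, the epithelial, endothelial, monocyte and fibroblast sums were each the lowest of the 3 lung libraries. The part of immediate early genes and of other cells in the chaperone result was not tested, and in sorted bulk RNA a shift in cell make-up and a change in RNA per cell cannot be told apart.

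**Figure D4:**
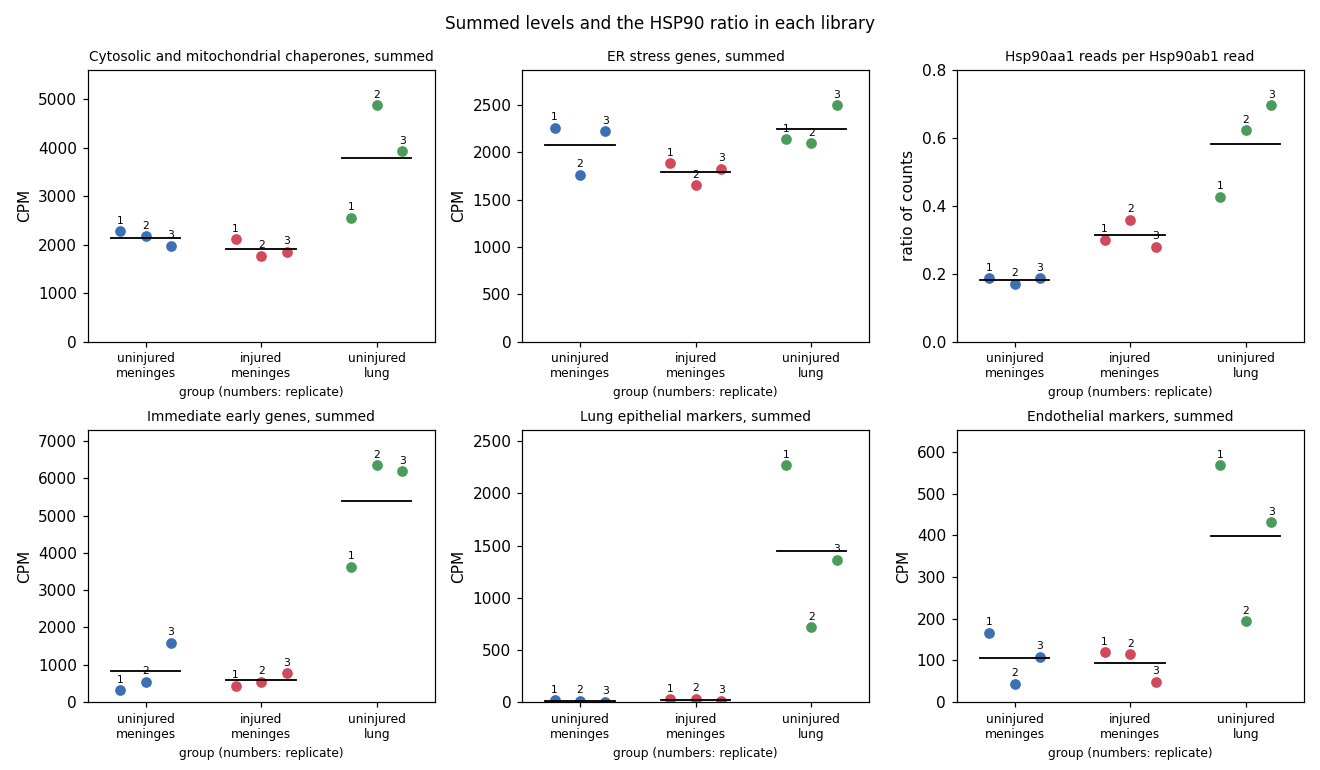
Sums of CPM over gene lists, and reads of Hsp90aa1 per read of Hsp90ab1, in each library, with replicate numbers beside the points and the mean of the group as a bar. The chaperone sum of lung 1 (2557) is close to the meninges and those of lung 2 and lung 3 are above, the ER stress sums overlap, and the epithelial sum is highest in lung 1.

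Injury was addressed by injured against uninjured meninges, 24 h after contusion. No member was called by edgeR, where 0.192% of all genes were called (0.132% higher, 0.0595% lower), and 4 members had an unadjusted p under 0.05 (8.94% of all genes did). DESeq2 called 1 member, Hspa1b. The chaperone class was centred on 0, with 11 of 22 values below it and a median of -0.01. In the ER class 13 of 18 values were below 0 with a median of -0.29, and all genes tested had a median of 0.00. Without injured meninges 2 the ER class had 11 values below 0.

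Hspa1b came closest to a call. It had 1, 0 and 1 counts in injured meninges and 3.54, 0.645 and 1.07 CPM in uninjured meninges (fitted -5.11 ± 1.12, edgeR adjusted p = 0.0977, range over alternatives 0.00551 to 0.751). Counted over the groups this was 2 against 91 reads, a 42.2-fold lower level with an exact 95% interval of 11.4 to 354 that covers counting error only. Its copy Hspa1a had the opposite sign, with no count in uninjured meninges and 0, 34 and 1 counts in injured meninges, so 1 library, injured meninges 2, held nearly all of them (adjusted p = 0.46). Summed, the copies came to 0.963 ± 1.51 CPM in injured and 1.75 ± 1.56 CPM in uninjured meninges (-0.91, adjusted p = 0.871), a difference within the spread.

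No other chaperone was called, in either direction. Hsp90aa1 had 131, 122 and 85.5 CPM in injured meninges against 104, 91.3 and 75.4 CPM (0.32 ± 0.34, adjusted p = 0.854), and Hsp90ab1 had 437, 339 and 306 CPM against 557, 534 and 403 CPM (-0.47 ± 0.26, adjusted p = 0.639). Hspa8 at 322, 309.8 and 217 CPM (-0.29 ± 0.23) and Dnaja1 at 185, 103 and 235 CPM (-0.41 ± 0.33) overlapped the uninjured libraries. Hspe1 had 14.0, 3.26 and 5.70 CPM, mostly under the 13.0 to 26.8 CPM of uninjured meninges (-1.33 ± 0.62, adjusted p = 0.556). Chordc1 at 47.6, 72.5 and 73.5 CPM against 81.5, 90.6 and 131 CPM (-0.65 ± 0.32) and Hsf1 at 33.6, 30.1 and 11.3 CPM (-0.78 ± 0.49) did not overlap and were not called. With Hspa1b, 3 of the 22 were lower without overlap, and 6.79% of all genes were. The rest of the class had fitted values between -0.54 (Hspd1) and 0.80 (Bag3).

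In the ER class Ppp1r15a, of the PERK branch, had the smallest p. It had 3.11, 4.93 and 9.71 CPM in injured meninges against 5.77, 11.6 and 48.6 CPM (-1.89 ± 0.72, adjusted p = 0.478), a gap that rests mainly on uninjured meninges 3. Atf4 had 90.5, 89.4 and 73.8 CPM, at or above most uninjured libraries (0.51 ± 0.34, adjusted p = 0.711), and Ddit3 had 6.51, 1.11 and 4.39 CPM (-0.91 ± 1.19). Ern1, at 149, 124 and 139.9 CPM, was above the 114 to 116 CPM of every uninjured library (5.35% of all genes were higher without overlap), a difference of 0.26 ± 0.25 with an adjusted p of 0.836. Atf6, at 77.5, 43.8 and 70.1 CPM, was below every uninjured library (-0.58 ± 0.34, adjusted p = 0.662). Xbp1, at 102, 58.4 and 46.7 CPM, surrounded the uninjured values (-0.05 ± 0.37).

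Of 8 ER chaperones 7 had values below 0 after injury, with a median of -0.37 and none called. Hspa5 had 128, 49.5 and 155 CPM (-0.56 ± 0.35), Hsp90b1 had 314, 478 and 382 CPM (-0.45 ± 0.22, adjusted p = 0.589) and Dnajb11, a BiP partner, had 29.0, 14.2 and 45.8 CPM against 49.4, 40.5 and 80.1 CPM (-0.93 ± 0.49). For Hspa5, Dnajb11, Calr (134, 43.9 and 126 CPM) and Canx, injured meninges 2 was the lowest library of all 9, and without it Calr changed sign to 0.08. Dnajc3 had 192, 187 and 147 CPM (-0.29 ± 0.23), Sdf2l1 had -2.24 ± 2.11 and Dnajb9 had 0.06 ± 0.56. The isomerases Pdia3 (0.13 ± 0.20), Pdia4 (-0.48 ± 0.43) and Pdia6 (0.36 ± 0.58), and Herpud1 (-0.28 ± 0.64), were not called. Precision sets a limit here: the median SE over all genes was 0.27 above 100 CPM, 0.61 from 10 to 100 CPM and 1.77 below 10 CPM.

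Injured meninges against uninjured lung differ in tissue and in injury, which cannot be told apart, and the comparison shares libraries with both others. All 6 members called were lower in injured meninges, beside 1.05% of all genes called and 0.873% called lower. They were Hspa1b (-9.77 ± 1.27, edgeR adjusted p = 0.000919), Dnaja1 (-1.77 ± 0.34, adjusted p = 0.0167), Hsp90aa1 (-1.83 ± 0.35, adjusted p = 0.017), Hspa8 (-1.10 ± 0.23, adjusted p = 0.03), Ppp1r15a (-3.48 ± 0.76, adjusted p = 0.0359) and Hspe1 (-2.95 ± 0.66, adjusted p = 0.0427). None of the 6 overlapped between the groups, but they were picked by a test on the same values. Of all genes, 11.4% were lower without overlap. In counts Hspa1b had 2 against 1968 reads, 979.7-fold lower with an exact 95% interval of 271 to 8096 for counting error. The summed copies were called too (-6.62, adjusted p = 0.0218), while Hspa1a alone was not (adjusted p = 0.149), as its counts lay in injured meninges 2, and without that library it was (adjusted p = 0.0123).

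Ern1 had -0.97 ± 0.26 and an adjusted p of 0.0966 in that comparison. The chaperone class had 16 of 22 values below 0 with a median of -0.85, and 11 of 22 genes were lower without overlap, against 11.4% of all genes, and 0 were higher without overlap, against 6.38%. In the ER class 13 of 18 values were below 0 with a median of -0.34. Hspa1b held its call in all 17 alternatives that give it a value. Without lung 2 or without lung 3 it was the 1 member called, and without injured meninges 3 it was called with Dnaja1.

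The balance of the 2 cytosolic HSP90 genes did not overlap between the 3 groups. It was chosen after the values were seen and is given as a description, with no test. How many other gene pairs part the 3 groups in this way was not counted. After injury neither gene was called by itself (edgeR adjusted p = 0.854 for Hsp90aa1 and 0.639 for Hsp90ab1). Reads of Hsp90aa1 per read of Hsp90ab1 were 0.187, 0.171 and 0.187 in uninjured meninges, 0.300, 0.359 and 0.280 after injury, and 0.427, 0.623 and 0.697 in lung. No library of one group fell in the range of another. Scaling between libraries does not enter this ratio, and lung 1, the lung library with the lowest chaperone sum, was still above all 6 meningeal libraries.

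Members with and without a heat shock element were set side by side. Among 17 chaperone genes with a window, the 11 with the element had a median of -1.14 in uninjured meninges against lung. Of these 11, 2 were called, Hspa1a and Hspa1b, whose sum was not called (edgeR adjusted p = 0.0512). The 6 without it (Hspa4, Hspa4l, Stip1, Ahsa1, Dnaja2 and Dnajb1) had a median of -0.42, with values from -1.72 (Dnajb1) to -0.26 (Hspa4) and 0 called. Of all genes, 0.635% were called in this comparison. After injury the medians were -0.27 with 8 of 11 below 0 and 0.41 with 0 of 6 below 0. The 5 members without a window had a median of -0.29 with 3 below 0. Of all genes 50.2% were below 0, and 0 members were called. The split is a description without a test, Hspa1a and Hspa1b share nearly the same sequence, and the windows of Hspd1 and Hspe1 overlap. Of the called Hsp90aa1 no window was given. Counting only the 250 bases before the start, 9 of 17 chaperone genes held the element and 14.5% of all genes did.

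Wider lists of the same pathways held few calls. The 8 subunits of the cytosolic chaperonin TRiC, which folds actin and tubulin, had 0 called in each of the 3 comparisons by edgeR or DESeq2, 0 at an unadjusted p under 0.05, and medians of -0.11 after injury, 0.09 in uninjured meninges against lung and 0.02 in injured meninges against lung. Of 27 other chaperones and co-chaperones 26 were tested and 0 called by edgeR in each comparison, with medians of 0.02, -0.14 and -0.18. At an unadjusted p under 0.05 there were 2, 1 and 2 of them, and DESeq2 called 1, 0 and 2, with Bag5 the smallest p after injury (1.35 ± 0.53, adjusted p = 0.493, means of 43.9 and 17.3 CPM). Of 33 other ER stress genes 30 were tested, with 0 called after injury by edgeR (2 at an unadjusted p under 0.05, and 1 by DESeq2, Ero1b). In both comparisons with lung 1 was called, Atf3, a factor induced by many stresses including the PERK branch. Atf3 had no count in any of the 6 meningeal libraries and 26.1, 47.3 and 50.3 CPM in lung (edgeR adjusted p = 0.00177 for uninjured and 0.00156 for injured meninges). It is also on the list of immediate early genes. The medians of the other ER stress list were 0.05, -0.13 and -0.21.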

How the data were processed

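For 9 RNA-seq libraries the authors deposited whole-number read counts per gene, without normalization. The submitters' processing notes name FastQC, STAR and HTSeq, without versions, and the build mm9. Whether counting used strand is not stated there, so overlapping genes cannot be told apart. The test was edgeR 4.0.16 (R 4.3.3): genes kept by filterByExpr by group, TMM scaling (trimmed mean of M values), 1 fit of all 9 libraries with a mean per group, robust quasi-likelihood F tests, and Benjamini-Hochberg adjustment over the 15117 genes tested. A gene is called at an adjusted p under 0.05. The SE is the size of the log2 fold change over the root of F. DESeq2 1.42.0 and 17 other settings, 9 of them leaving out 1 library, were alternatives. CPM per kb used the union of exons in GENCODE M21 (GRCm38, not the authors' build), for comparing genes only. Promoters are RefSeq windows on GRCm38.p6, and open reading frames come from GENCODE M21 transcripts.

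Members, gene lists and motifs were chosen with earlier results of these data known. Values in every library are given for members called in any comparison and for 14 fixed members (Hsf1, Hspa1a, Hspa1b, Hspa8, Hsp90aa1, Hsp90ab1, Hspa5, Hsp90b1, Xbp1, Atf4, Atf6, Ern1, Ddit3 and Calr). They are also given for the 4 of each class with the smallest p in each comparison. Of other lists, some called genes and some with the smallest p are named, not always with a value in every library. The ratio of HSP90 genes, the order of lung libraries, the split by motif, the printed promoters and the class medians under alternatives were chosen after values were seen. In counts simulated from these libraries, with 200 of the genes at 10 CPM or more changed, the test recovered 4% of 2-fold, 48% of 4-fold, 60% of 8-fold and 74% of 16-fold changes in injured against uninjured meninges, with 12 false among 105 calls. For uninjured meninges against lung it recovered 0%, 38%, 70% and 80%, with 2 false among 96.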

Additional observations from a re-analysis of the deposited data

How the results depend on the processing

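Over the 18 alternatives, 1188 of 1286 values for the 20 members given in full, for the counts of calls and for the class medians kept their direction and their side of the threshold or stayed close to the main value. For injured against uninjured meninges, 0 members and 29 genes were called. DESeq2 called 1 member and 435 genes, the fit without a low-count filter 1 member and 78 genes, and the fit of only the 6 libraries compared 12 genes. Leaving out 1 library gave 0 members and 18 to 27 genes. For uninjured meninges against lung, 4 members and 96 genes became 535 genes with DESeq2, 193 without a filter and 226 with only the 6 libraries. With Hspa1a and Hspa1b summed, 2 members were called. Leaving out 1 library gave 1 to 5 members and 51 to 196 genes. For injured meninges against lung, 159 genes became 1127 with DESeq2 and 296 without a filter. Leaving out 1 library gave 1 to 6 members and 54 to 230 genes. The cause was not tested.

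Signs turned in 19 values, all of members that were not called. With DESeq2 and with relative log expression scaling, in uninjured meninges against lung, Calr had -0.001623 and -0.00035, and Dnajb11 had -0.01174 and -0.0104. The other turns came from leaving out 1 library. The ranges that follow are over all 18 alternatives. After injury, Xbp1 ranged from -0.4395 to 0.1648 and Calr from -0.5365 to 0.07734. For uninjured meninges against lung, Chordc1 ranged from -0.02384 to 0.3351, Atf4 from -0.3962 to 0.007729, Ddit3 from -0.1193 to 1.23, Hsp90b1 from -0.00396 to 0.3198, Calr from -0.2122 to 0.2553 and Dnajb11 from -0.3094 to 0.3949. For injured meninges against lung, Ddit3 ranged from -1.126 to 0.3242 and Calr from -0.5229 to 0.1043.

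The median of the chaperone class in uninjured meninges against lung ran from -0.76 to -0.55 over the alternatives, that of the ER class from -0.10 to 0.12, and that of the ER class after injury from -0.49 to -0.21. Deviations of libraries with the same replicate number correlated at 0.09, -0.02 and 0.01 between injured and uninjured meninges and at 0.04, 0.10 and -0.0030 between uninjured meninges and lung, so the numbers were not taken to pair libraries. With the replicate block, 0, 3 and 6 members and 43, 136 and 183 genes were called for injury, uninjured meninges against lung and injured meninges against lung. Among genes under 10 CPM, such as Hspb1, Ddit3 and Sdf2l1, the median SE was 1.77 in both the injury comparison and that of uninjured meninges with lung.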
